A study of Homo sapiens with 29 samples.

Results

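HepG2, an established cell line derived from a tumour of human liver, was compared after 12 h with CCL and after 12 h without it. CCL matches the initials of Cratoxylum cochinchinense Lour, the herb in the title of the series, and has nothing to do with the chemokine genes whose symbols begin with the same letters. The comparison takes the 3 arrays whose titles give CCL treatment at 12 h and the 3 whose titles give untreated cells at 12 h, so 6 of the 29 arrays of the series. The other 23 arrays hold untreated cells at 0, 6, 18, 24 and 48 h and treated cells at 6, 18, 24 and 48 h. Within each group the titles number the arrays as sets 1, 2 and 3. All groups are the same line with no genetic change named. The labels give no dose and no vehicle, so an effect of the herb cannot be told apart from one of a solvent or of handling. They also do not say whether sets are separate cultures, so the p-values below measure only a spread between arrays. In the model of all 29 arrays that spread is pooled over the groups of every time. With 3 arrays a group the precision of every value is limited.

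Several of the genes described below belong to pathways that are well known in liver cells. Interleukin-11 and leukaemia inhibitory factor are cytokines of the interleukin-6 family, which signal through the shared receptor subunit gp130, JAK kinases and STAT3. Growth factor signals run through RAF, MEK and ERK to a set of immediate early transcription factors, among them the FOS and JUN proteins that form AP-1, and ERK signalling also induces its own inhibitors, the dual-specificity phosphatases and Sprouty proteins. Genes of mitosis rise and fall together with the cell cycle, under NF-Y and the DREAM and MYBL2 complexes, so that their levels follow the share of cells in G2 and M phase.

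The 6 arrays lay at the same level, with medians over all probe sets of 2.51 to 2.54 on the log2 scale, against 2.29 to 3.39 on the other arrays. Their replicates were also tighter than those of most other times: the mean SD between arrays was 0.185 in untreated and 0.2 in treated cells at 12 h, against 0.339 pooled over all 11 groups. The pooled SD includes differences of level within groups, such as medians of 2.29 and 2.99 in untreated cells at 18 h. Markers of the labelled cell type were present. All 16 hepatocyte and HepG2 markers with a named probe set, among them ALB, AFP and TTR, lay above log2 5, and none was called. Of markers of other cells, none of 3 named fibroblast genes, 1 of 7 endothelial genes (ESAM), 2 of 6 leukocyte genes (CD68 and LYZ) and 4 of 6 cholangiocyte genes lay above that level. The log2 values of the leukocyte genes summed to 30.2 to 31.8 per array in untreated and 31.9 to 34.2 in treated cells, with PTPRC and other defining genes not among the named probe sets. The part of other cell types in the results was not tested. In bulk RNA, fewer cells of a kind and less RNA per cell cannot be told apart.

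After 12 h with CCL, the cytokine genes IL11, LIF and GDF15 and 5 of 15 ERK feedback and output genes were called higher. Fewer genes were called lower, among them KIF20A and NUSAP1, which act in mitosis, and IDI1, of cholesterol synthesis. That more genes were called higher than lower held in the model of all 29 arrays and not in the fit to the 6 arrays as deposited, as the counts below show. Rose and fell are used only where limma gave a Benjamini-Hochberg adjusted p under 0.05 in a model of all 29 arrays with 1 mean per group, and called means the same unless another fit is named. Of 6529 genes tested, 81 were called (1.24%), of which 68 rose (1.04%) and 13 fell (0.199%). These shares are the background for counts of called list members below, also where they are not repeated. In each of the 81, all treated arrays lay on one side of all untreated arrays, while 2169 of all genes tested (33.2%) were separated in this way, 770 higher (11.8%) and 1399 lower (21.4%). The median difference over all genes was -0.06.

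How many genes passed depended on where the spread was taken from. A fit to the 6 arrays of 12 h alone, whose median standard error was 0.15 against 0.258 in the 29-array model, called 660 genes (10.1%), 256 higher (3.92%) and 404 lower (6.19%). The share called higher was therefore 84% in the model of all arrays and 38.8% in that of the 6. After the 6 arrays were quantile normalized together it was 51.1%, with 587 calls (8.99%), 300 higher (4.59%) and 287 lower (4.4%). Quantile normalization of all 29 arrays gave 146 calls in the 29-array model (2.24%), 116 higher (1.78%) and 30 lower (0.459%), a share of 79.5%; median centring of each array gave 72.4%, and the block described next 58%. Of the 81 genes, 80 were also called in the 6-array fit, the exception being FHL3 (adjusted p = 0.056). With the set number as a block in the 29-array model, 257 genes were called (3.94%), 149 higher (2.28%) and 108 lower (1.65%), and all 81 remained. Each array mattered: leaving out any 1 of the 6 lowered the count from 81 to between 28 (without untreated set 3) and 47 (without treated set 3). The other counts were 45 without untreated set 1 or set 2, 34 without treated set 1 and 35 without treated set 2. In all 6 of these fits 24 of the 81 genes were called, 22 of them higher and 2, MAP2K6 and IDI1, lower, while 25 were called in none of them. Of the genes described below that are not among the 24, HAMP, PIM1, MAPK13 and CSGALNACT2 were called in 4 of these fits, AQP3, DUSP5, SPRY4 and ZYX in 3, FOSL1 and PLK3 in 2, and STC2, SMOX, MCL1 and JUND in 1. IER2, VASP and most of the genes that fell were called in none. For most of these the adjusted p was highest without untreated set 3 (CSGALNACT2 0.0535, AQP3 0.0853, FOSL1 0.0853, MAPK13 0.106, PLK3 0.124, MCL1 0.135, SMOX 0.256, JUND 0.264, VASP 0.265 and IER2 0.275). It was highest without treated set 1 for DUSP5 (0.0638), HAMP (0.0638), PIM1 (0.0753) and STC2 (0.11), and without treated set 3 for SPRY4 (0.107).

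**Figure D1:**
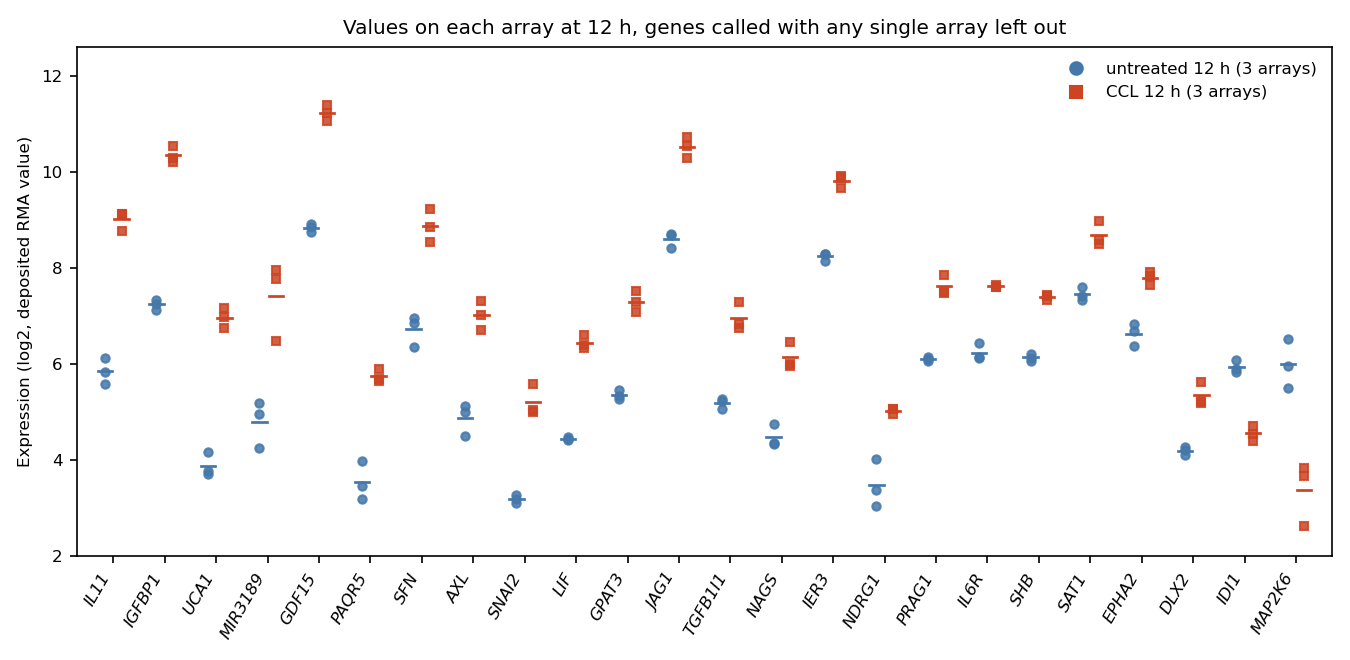
Deposited log2 value on each of the 6 arrays of 12 h (vertical axis) for the 24 genes that were called with any single array of 12 h left out, ordered by difference. Circles are untreated arrays, squares treated arrays and lines group means; in every gene the 3 squares lie on one side of the 3 circles, above them for 22 genes and below them for IDI1 and MAP2K6.

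**Figure D2:**
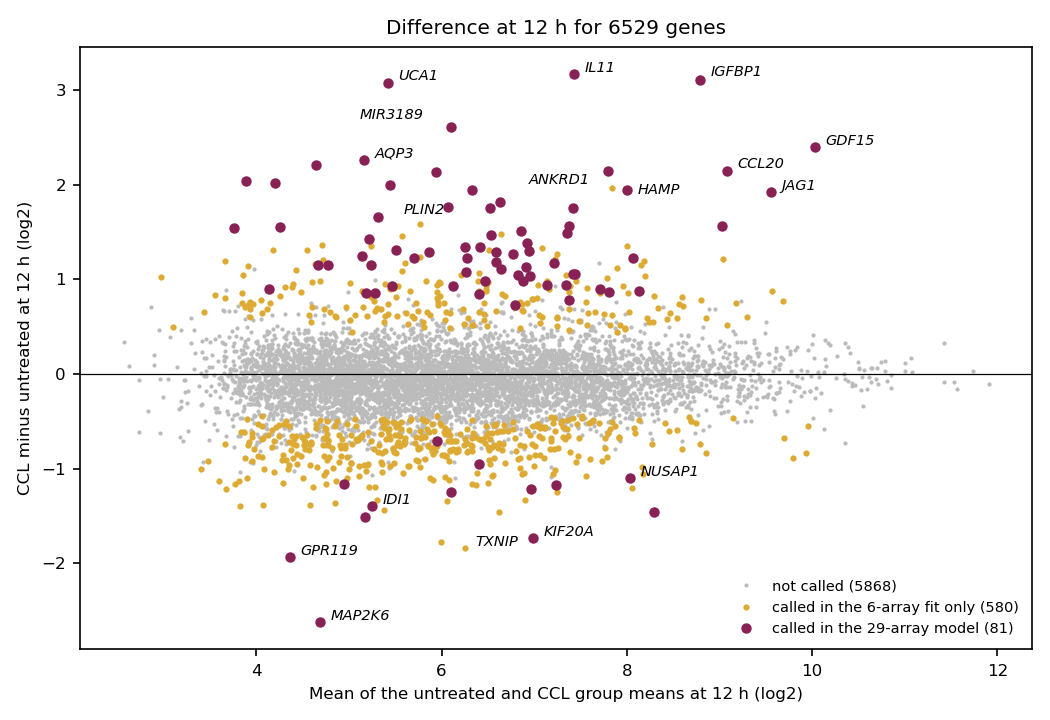
Difference of treated minus untreated cells at 12 h (vertical axis, log2) against the mean of both groups (horizontal axis, log2) for 6529 genes, 1 point each. The 81 genes called in the 29-array model are large dark points, reaching from MAP2K6 at -2.62 to IL11 at 3.16, and the 580 called in the 6-array fit alone are smaller light points.

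IL11 had the largest difference of all genes tested. It read 6.12, 5.83 and 5.59 in untreated sets 1, 2 and 3 and 9.13, 9.13 and 8.77 in the treated sets. The groups lay far apart, and the rise was 3.16 ± 0.35 (SE) on the log2 scale, or 8.96-fold, with a limma adjusted p of 1.13e-05. LIF, the second cytokine of this family that rose, read 4.41, 4.48 and 4.43 untreated and 6.33, 6.39 and 6.61 treated, a rise of 2.00 ± 0.37 (adjusted p = 0.00349). Its untreated values lie under log2 5, so the size of the rise is uncertain. Among the receptors, IL6R, the interleukin-6 binding chain, rose by 1.39 ± 0.24 (adjusted p = 0.00153), with treated arrays within 7.60 to 7.64 and untreated ones within 6.12 to 6.43. These were the 3 called, all higher, of 12 tested members of the list of family cytokines, receptors and JAK-STAT genes (1.04% of all genes). The median of the list was 0.09 against -0.06 over all genes. The receptor LIFR (-0.25 ± 0.25), the kinase JAK2 (-0.28 ± 0.37), the factor STAT3 (0.08 ± 0.20) and the inhibitor SOCS1 (difference 0.32) were not called. The remaining ligand tested, CTF1, differed by 0.06 ± 0.28. So both called cytokines and IL6R changed while none of the 5 kinases and STAT factors passed in any fit named above.

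The 250 bases before the start of IL11 are shown because they hold an AP-1 element, whose part in the rise of IL11 was not tested. They lie at chr19:55370464-55370713 on the minus strand (RefSeq, GRCh38.p14) and are given 5′ to 3′ with the element, from 96 to 90 bases before the start, in capitals.
IL11: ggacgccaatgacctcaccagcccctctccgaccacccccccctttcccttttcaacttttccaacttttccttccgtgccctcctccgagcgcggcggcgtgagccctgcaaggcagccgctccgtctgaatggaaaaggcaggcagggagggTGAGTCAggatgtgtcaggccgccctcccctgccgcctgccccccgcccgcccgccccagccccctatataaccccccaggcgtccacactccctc
Promoters were searched on both strands for the AP-1 element TGANTCA, whose matches on both strands at 1 place count as 1 site. Of 52 genes that rose and have a promoter in the table, 5 (IL11, INPP1, NAGS, S100A3 and SFN) hold it, or 9.62%, against 3.06% of 5261 genes tested and 6.6% of all 27305 promoters. It is also in 1 of 13 genes that fell (7.69%, ARRDC4) and in 0 of 17 immediate early genes with a promoter in the table. A match is a description of the sequence and not of binding.

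Genes that ERK signalling induces were higher. Of 15 tested members of the list of ERK feedback inhibitors and output genes, 5 rose and none fell (1.04% and 0.199% of all genes). Their median was 0.75 against -0.06 over all genes. The 6-array fit called 7 of them higher and none lower (3.92% and 6.19% of all genes). Of the feedback inhibitors, the nuclear ERK phosphatase DUSP5 read 2.88, 2.92 and 2.82 untreated and 5.10, 5.03 and 4.59 treated, a rise of 2.03 ± 0.41 (adjusted p = 0.00899). Its untreated values lie not far above the array medians of 2.51 to 2.54, so the size of its rise is uncertain. SPRY4, a Sprouty protein that restrains RAS and RAF, rose by 1.56 ± 0.33 (adjusted p = 0.0111). Its untreated arrays lay within 6.55 to 6.62, and treated set 3 (8.65) lay above sets 1 and 2 (7.93 and 7.87). The cytosolic ERK phosphatase DUSP6 differed by 0.75 ± 0.21 without overlap and was called in the 6-array fit (adjusted p = 0.00696) and with the block (0.0398) but not in the 29-array model (0.0812). SPRY2 was lowest of the inhibitors, at 0.10 ± 0.34.

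Of the output genes, FOSL1, which encodes the AP-1 subunit FRA-1, read 5.65, 5.99 and 5.53 untreated and 7.20, 7.82 and 7.59 treated, and rose by 1.81 ± 0.38 (adjusted p = 0.0109). IER3, an early response gene that modulates cell survival, rose by 1.56 ± 0.30 from 8.29, 8.30 and 8.15 to 9.91, 9.65 and 9.87 (adjusted p = 0.00552). Its 10 other probe sets differed by 0.75 to 1.63, some of them with values identical to one another. EPHA2, an ephrin receptor kinase, rose by 1.17 ± 0.20 (adjusted p = 0.0019). MYC (0.55 ± 0.25) and cyclin D1, CCND1 (-0.09 ± 0.20, lowest of the list), were not called by limma in the 29-array model or the 6-array fit. The second probe set of DUSP5 was dim and differed by 0.32.

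Immediate early genes overlapped with this list and went the same way. Of 24 tested, 7 rose and none fell (1.04% and 0.199% of all genes), with a median of 0.87. The 6-array fit called 13 higher and none lower (3.92% and 6.19% of all genes), and the block 14 and none (2.28% and 1.65%). Besides FOSL1 and IER3, the genes that rose were SNAI2, the kinase PLK3, the AP-1 subunit JUND, the survival factor MCL1 and IER2. SNAI2, the transcription factor Slug, read 3.20, 3.27 and 3.11 untreated and 5.00, 5.57 and 5.04 treated (2.01 ± 0.32, adjusted p = 0.000897). Its untreated values lie under log2 5, so the size of its rise is uncertain. All 8 tested AP-1 and ATF factors had a difference above 0, against 41.8% of all genes. Of these, 2 were called, FOSL1 and JUND (0.94 ± 0.23, adjusted p = 0.0344). JUN (1.02 ± 0.35), JUNB (difference 0.87) and FOSL2 (0.90) were separated without overlap and were called in the 6-array fit, JUN and FOSL2 also with the block (adjusted p = 0.00895 and 0.00967), and none of them in the 29-array model. FOS was at 0.36 and FOSB at 0.30. EGR1 lay higher by 1.18 ± 0.42, but its highest untreated array (7.69) exceeded its lowest treated one (7.67), and it was called with the block (adjusted p = 0.0196) but in neither fit without it. SGK1, a kinase, was lowest, at -0.63 ± 0.35, and was called in neither of these fits.

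**Figure D3:**
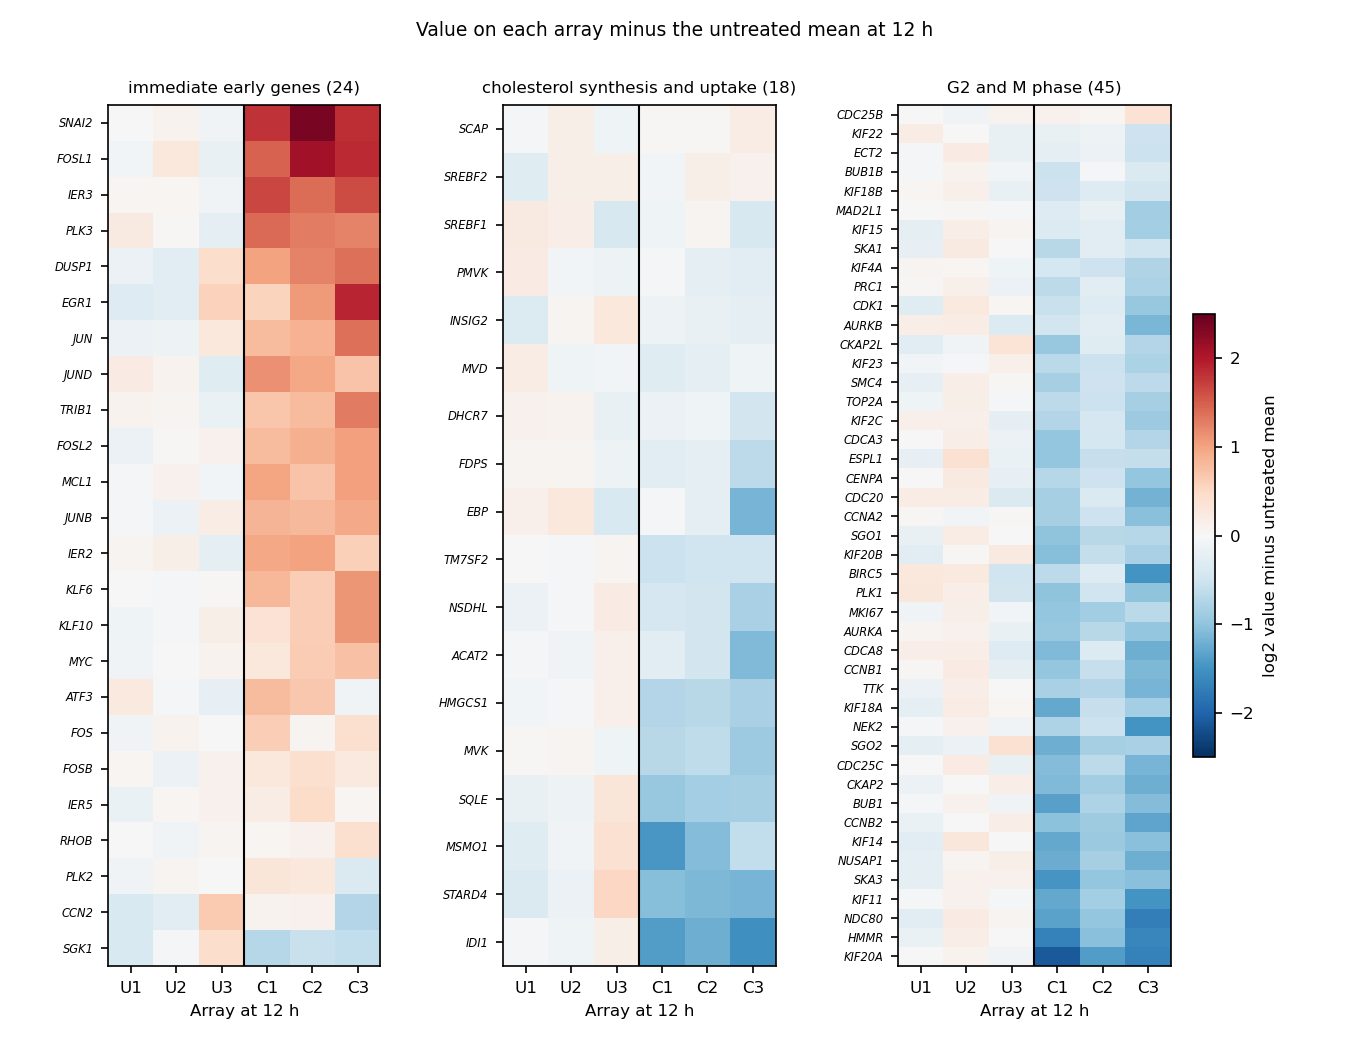
Value on each of the 6 arrays of 12 h minus the untreated mean of the gene (log2, colour) for the tested members of 3 gene lists, immediate early genes (24), cholesterol synthesis and uptake (18) and G2 and M phase (45). U1 to U3 are untreated and C1 to C3 treated sets; most immediate early genes are higher and all G2 and M genes but CDC25B are lower in the mean of the treated arrays.

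GDF15, a cytokine released by stressed cells that acts on the hindbrain receptor GFRAL, rose from 8.91, 8.85 and 8.75 to 11.23, 11.07 and 11.40. The difference was 2.39 ± 0.28, or 5.25-fold (adjusted p = 1.62e-05). The probe set named MIR3189, a microRNA gene within GDF15, read 4.25, 4.96 and 5.20 untreated and 7.96, 6.49 and 7.78 treated, a rise of 2.61 ± 0.44 (adjusted p = 0.00147). Treated set 2 was the lowest of its group and still above every untreated array. The mature sequences are shown to identify the 2 arms and their seeds, bases 2 to 8, which are in capitals. They are from RefSeq (GRCh38.p14), on the plus strand at chr19:18386570-18386594 (5p) and chr19:18386607-18386627 (3p), both inside GDF15.
hsa-miR-3189-5p: uGCCCCAUcugugcccuggguagga
hsa-miR-3189-3p: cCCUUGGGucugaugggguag
The array gives 1 value for the gene, so neither arm was measured on its own, and whether the probe set separates the microRNA from the GDF15 transcript was not tested.

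GDF15 also belongs to the targets of ATF4 and CHOP, the factors of the integrated stress response. Of 15 tested targets 2 rose and none fell (1.04% and 0.199% of all genes), with a median of 0.21. The 6-array fit called 4 higher and 2 lower (3.92% and 6.19% of all genes). Both genes that rose are secreted: GDF15 and STC2, a stanniocalcin (1.22 ± 0.28, adjusted p = 0.0204). The regulator TRIB3 differed by 0.83 ± 0.28 without overlap and was called in neither the 29-array model nor the 6-array fit. Of 7 tested genes of amino acid synthesis and transport none was called in the 29-array model, and the 6-array fit called 1 higher and 2 lower. Cystathionine gamma-lyase, CTH, was highest at 0.60 ± 0.39 (6-array adjusted p = 0.0491), and asparagine synthetase, ASNS, was at 0.02 ± 0.30. The serine enzyme PSPH was lowest at -0.78, called lower in the 6-array fit (adjusted p = 0.00578) and with the block (0.0177). None of 16 cytosolic aminoacyl-tRNA synthetases was called by limma in any of these fits, with a median of 0.10 and a range from NARS1 at -0.25 to SARS1 at 0.38. The element TGATGNAA, read by ATF4 with C/EBP factors, was in 1 of 52 promoters of genes that rose (1.92%), against 1.22% of genes tested.

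Oxidative stress and metal response genes leaned higher without calls in the 29-array model. Of 15 NRF2 targets none was called there and 5 were called higher in the 6-array fit (3.92% of all genes), with a median of 0.32. SQSTM1, the autophagy receptor p62, was highest at 1.07 ± 0.30 (adjusted p = 0.0872, and 0.00685 in the 6-array fit and 0.00653 with the block), and the glutathione peroxidase GPX2 was lowest at -0.13. HMOX1, haem oxygenase 1, read 6.34, 6.18 and 7.76 untreated and 6.72, 6.80 and 9.55 treated. Set 3 was the highest of both groups and the groups overlapped (0.93 ± 0.85). All 5 tested metallothioneins, which bind zinc and copper, had differences of 0.76 to 1.35. None of them was called by limma in the 29-array model. The 6-array fit called 4 higher (3.92% of all genes) and the block 2 (2.28%). MT1G was highest at 1.35, and the zinc sensor MTF1 differed by 0.06.

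IGFBP1, a liver protein that binds insulin-like growth factors in blood, had the second largest rise. It read 7.26, 7.13 and 7.33 untreated and 10.28, 10.21 and 10.54 treated, or 3.10 ± 0.48 (8.59-fold, adjusted p = 0.000583). It was the only called gene of 10 tested of the IGF and insulin list, whose median was 0.27 and whose lowest member, FOXO4, was at -0.33. The insulin receptor, INSR, was at 0.21. HAMP, the gene of hepcidin, the hormone that blocks iron export, rose from 7.11, 6.58 and 7.39 to 9.24, 9.02 and 8.65 (1.94 ± 0.39, adjusted p = 0.00782). Of 9 other iron and BMP-SMAD genes tested none was called, BMP6 being at 0.20 and SMAD5, the lowest, at -0.51.

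NDRG1, a gene induced by low oxygen, read 3.37, 3.05 and 4.03 untreated and 4.97, 5.06 and 5.07 treated, a rise of 1.55 ± 0.28 (adjusted p = 0.00349). With untreated values under log2 5, the size of this rise is uncertain. The groups did not overlap, and it was the 1 called gene of 14 tested in the glycolysis and hypoxia list, whose median was 0.08. HK2, a hexokinase, was highest of the 6 glycolysis genes at 0.75 ± 0.29 without a call in the 29-array model, and BNIP3L, a mitophagy receptor, was the lowest of the list at -0.34.

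UCA1, a long non-coding RNA known from bladder cancer, read 3.76, 3.72 and 4.17 untreated and 6.74, 6.98 and 7.16 treated (3.08 ± 0.46, adjusted p = 0.000466). Its second probe set was dim and differed by 0.37. AQP3, a channel for water and glycerol, rose by 2.26 ± 0.45 (adjusted p = 0.00795) from 4.72, 3.83 and 3.54 to 6.82, 6.60 and 5.46. Set 3 was the lowest array of both its groups. PAQR5, a membrane progestin receptor, rose by 2.20 ± 0.34 (adjusted p = 0.000572), with untreated arrays at 3.19 to 3.97 and treated ones at 5.65 to 5.89. SFN, the 14-3-3 protein sigma, rose from 6.95, 6.86 and 6.36 to 8.54, 8.84 and 9.22 (2.15 ± 0.32, adjusted p = 0.000466). NAGS, which makes the activator of the first urea cycle enzyme, rose by 1.66 ± 0.27 (adjusted p = 0.00119). None of these 5 genes overlapped between the groups. Untreated values of UCA1, AQP3 and PAQR5 lie under log2 5, so the sizes of their rises are uncertain. CSGALNACT2, an enzyme of chondroitin sulfate synthesis, rose by 1.75 ± 0.35 (adjusted p = 0.00795). SHB, an adaptor protein of tyrosine kinase receptors, rose by 1.26 ± 0.25 (adjusted p = 0.00724) from 6.07, 6.22 and 6.12 to 7.42, 7.34 and 7.44.

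Single members of the YAP, Notch and TGF-beta lists rose. AXL, the receptor kinase for GAS6 and a YAP target, read 5.12, 5.00 and 4.50 untreated and 6.70, 7.02 and 7.31 treated (2.14 ± 0.28, adjusted p = 7.33e-05). It was the only called gene of 11 tested YAP and TEAD genes, whose median was 0.15. ANKRD1, a further YAP target, differed by 1.96 ± 0.71 without overlap (6.62, 6.34 and 7.61 against 9.50, 8.70 and 8.26), and was called only in the 6-array and block fits (adjusted p = 0.216 in the 29-array model, 0.0128 in the 6-array fit and 0.0411 with the block). The YAP target CCN2 was at -0.18 and the lowest member, TEAD1, at -0.25. JAG1, a Notch ligand, rose from 8.68, 8.70 and 8.42 to 10.54, 10.29 and 10.72 (1.92 ± 0.26, adjusted p = 0.000148), the 1 call among 14 Notch and WNT genes. NOTCH2, at -0.36, and LGR5, the lowest at -0.70, were not called. TGFB1I1, a focal adhesion protein also called HIC-5, rose by 1.76 ± 0.29 (adjusted p = 0.000996), and so did ZYX (zyxin, 1.13 ± 0.24) and VASP (0.87 ± 0.22), both proteins of actin attachment, with adjusted p of 0.0127 and 0.043. Apart from SNAI2, none of the 8 tested TGF-beta response and mesenchymal genes was called in the 29-array model. SNAI1 was at 0.92 (adjusted p = 0.146, and 0.0308 with the block) and the lowest member, SMAD7, at -0.04.

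CCL20, a chemokine that attracts cells with the receptor CCR6, rose by 2.15 ± 0.51 (adjusted p = 0.0329). It read 7.42, 7.71 and 8.87 untreated and 10.22, 10.03 and 10.21 treated, with untreated set 3 well above the rest of its group. Without untreated set 1 its adjusted p was 0.184, and it kept its call in only 1 of the 6 fits that left out an array. It was the 1 called gene of 14 NF-kB and inflammatory genes (median 0.19, lowest BIRC2 at -0.36). CXCL8, the neutrophil chemokine interleukin-8, was at 0.89 and called in none of the fits above. MCL1, an anti-apoptotic protein, was the 1 called gene of 10 BCL2 family members (0.90 ± 0.21, adjusted p = 0.0245), and the BH3-only gene BCL2L11 was lowest at -0.40. PIM1, a serine kinase induced by STAT signals, rose by 1.75 ± 0.36 (adjusted p = 0.00979).

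2 kinases of the p38 branch went opposite ways. MAP2K6, which activates p38, read 5.51, 5.96 and 6.52 untreated and 3.67, 3.84 and 2.63 treated, a difference of -2.62 ± 0.46 (adjusted p = 0.00219). All 3 treated values lie under log2 5, that of set 3 near the array median of 2.51 to 2.54, and whether they were above background was not measured, so no fold is given. MAPK13, the p38 isoform delta, rose by 0.94 ± 0.19 (adjusted p = 0.00896). They were the only called members of 21 tested in the MAP kinase cascade, whose median was -0.01. The second p38 activator tested, MAP2K3, was at -0.07 ± 0.29. MAP3K4 (-0.58), ARAF (0.45) and MAPKAPK2 (0.43) were not called in the 29-array model.

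Of 11 tested genes of polyamine metabolism 2 rose and none fell (1.04% and 0.199% of all genes), with a median of 0.09. SAT1, the acetyltransferase that starts polyamine export and breakdown, read 7.42, 7.61 and 7.34 untreated and 8.97, 8.58 and 8.50 treated (1.22 ± 0.22, adjusted p = 0.00268). SMOX, spermine oxidase, rose by 1.03 ± 0.24 (adjusted p = 0.0308). The other 9 tested polyamine genes were not called, with the synthesis enzyme ODC1 at 0.05 and the antizyme OAZ2 lowest at -0.36.

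Genes of mitosis lay lower. Of 45 tested G2 and M phase genes, 44 had a difference below 0, against 58.2% of all genes. Without overlap, 39 were separated lower, against 21.4% of all genes. The median was -0.81. The 29-array model called 2 of them lower (0.199% of all genes) and the 6-array fit 31 (6.19%). The block called 16 lower (1.65%) and quantile normalization of the 29 arrays 5 (0.459%). In none of these fits was a member called higher. KIF20A, a kinesin of cytokinesis, read 7.85, 7.94 and 7.78 untreated and 5.76, 6.46 and 6.16 treated, and fell by 1.73 ± 0.42 on the log2 scale (adjusted p = 0.0344). NUSAP1, a spindle protein, fell 2.15-fold, with an SE of 0.27 on the log2 scale, from 8.37, 8.66 and 8.74 to 7.35, 7.75 and 7.36 (adjusted p = 0.0344). Both lost their calls whichever array of 12 h was left out of the 29-array model. HMMR, a spindle and hyaluronan-binding protein (-1.46 ± 0.45), the kinetochore gene NDC80 (-1.34 ± 0.47), the kinesin KIF11 (-1.20 ± 0.43) and cyclin B1, CCNB1 (-0.89 ± 0.29), were called in the 6-array fit and not in the 29-array model, with 6-array adjusted p of 0.00337, 0.006, 0.00469 and 0.0162. With the block HMMR (0.0214), NDC80 (0.0401) and CCNB1 (0.0253) were called and KIF11 (0.0508) was not. MKI67, a marker of cycling cells, read 9.19, 9.42 and 9.20 untreated and 8.30, 8.40 and 8.60 treated (-0.84 ± 0.39; adjusted p = 0.407 in the 29-array model and 0.00727 in the 6-array fit). CDC25B, a phosphatase, was the 1 member above 0 (0.18 ± 0.17).

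Promoters of KIF20A, HMMR and KIF11 are shown because each holds a CCAAT box, and HMMR and KIF11 also a cell cycle homology region. The list of mitotic genes was not chosen by these elements. NF-Y binds the CCAAT box, and the cell cycle homology region TTTGAA is bound by the DREAM and MYBL2 complexes. Both were searched on both strands in the 250 bases before the start and are in capitals, in whichever orientation they lie. The windows (RefSeq, GRCh38.p14, all plus strand) are chr5:138178862-138179111 for KIF20A, chr5:163460382-163460631 for HMMR and chr10:92592880-92593129 for KIF11.
KIF20A: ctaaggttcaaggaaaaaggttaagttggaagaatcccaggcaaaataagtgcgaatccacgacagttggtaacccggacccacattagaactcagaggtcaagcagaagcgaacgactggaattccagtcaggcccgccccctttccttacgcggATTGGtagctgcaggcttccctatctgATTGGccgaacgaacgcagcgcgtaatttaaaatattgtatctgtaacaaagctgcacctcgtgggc
HMMR: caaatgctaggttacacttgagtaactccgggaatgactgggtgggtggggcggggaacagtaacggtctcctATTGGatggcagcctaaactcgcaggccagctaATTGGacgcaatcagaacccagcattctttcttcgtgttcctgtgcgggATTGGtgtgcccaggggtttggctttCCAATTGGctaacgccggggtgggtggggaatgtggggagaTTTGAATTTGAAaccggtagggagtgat
KIF11: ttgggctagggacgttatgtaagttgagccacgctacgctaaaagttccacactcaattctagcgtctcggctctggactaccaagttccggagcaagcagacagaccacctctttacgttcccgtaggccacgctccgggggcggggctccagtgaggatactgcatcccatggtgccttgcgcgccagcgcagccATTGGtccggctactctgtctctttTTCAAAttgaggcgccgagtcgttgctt
The KIF20A window holds 2 CCAAT boxes and no TTTGAA. NUSAP1, the other called gene of the list, also has a CCAAT box and no TTTGAA in its window, and NDC80 has neither. In HMMR there are 5 CCAAT boxes, 2 of them overlapping, and 2 adjoining TTTGAA elements, and in KIF11 1 of each. Over the list, 31 of 42 promoters hold a CCAAT box (73.8%), against 35.9% of the 5261 genes tested and 33% of all promoters. TTTGAA is in 20 of 42 (47.6%), against 8.67% of genes tested and 13.6% of all. These shares describe mitotic genes as such, and no test of the 12 h difference rests on them.

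Replication and repair genes lay below 0 as well, with fewer calls. Of 32 G1/S and replication genes none was called in the 29-array model. In the 6-array fit 4 were called lower (6.19% of all genes), and the median was -0.41. GINS1, of the replicative helicase, was lowest at -0.97, and CDT1, a licensing factor, highest at 0.10. All 17 DNA repair genes were below 0 (median -0.56), against 58.2% of all genes, from NBN at -0.11 to the helicase BRIP1 at -0.99. None was called in the 29-array model, and 7 were called lower in the 6-array fit (6.19% of all genes). TMPO, a protein of the nuclear lamina, fell by 0.95 ± 0.22 on the log2 scale (adjusted p = 0.0297).

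Cholesterol synthesis genes leaned lower. Of 18 tested genes of synthesis and uptake, 1 was called lower in the 29-array model (0.199% of all genes). The 6-array fit called 7 lower (6.19%) and the block 4 (1.65%), and none was called higher in these fits. Their median was -0.50. IDI1, which makes the isoprenoid unit dimethylallyl diphosphate, read 5.90, 5.84 and 6.09 untreated and 4.54, 4.72 and 4.41 treated, and fell by 1.39 ± 0.26 on the log2 scale (adjusted p = 0.00377). All 13 tested synthesis enzymes were below 0, against 58.2% of all genes. They included SQLE (-0.87 ± 0.29) and HMGCS1 (-0.74 ± 0.32), of which the block called SQLE (adjusted p = 0.031). The sterol carrier STARD4 was at -1.12 ± 0.40 (adjusted p = 0.207, and 0.0419 with the block), while SREBF2, the gene of the factor that drives the pathway, was at 0.06 ± 0.23 and SCAP was highest at 0.08. The sterol element TCACNCCAC was in 1 of 16 of their promoters (6.25%, SREBF2), against 0.912% of genes tested.

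Among genes of fatty acid and triglyceride synthesis, GPAT3, which acylates glycerol-3-phosphate, rose from 5.26, 5.34 and 5.46 to 7.09, 7.29 and 7.52 (1.94 ± 0.38, adjusted p = 0.00737). It was the 1 call of 19, and the median was -0.33. Fatty acid synthase, FASN, was at -0.07 ± 0.35, and MOGAT2 was lowest at -0.82. PLIN2, the coat protein of lipid droplets, was highest of 9 fatty acid oxidation and PPARA targets at 1.58 ± 0.44. It was called in the 6-array fit (adjusted p = 0.000712) and with the block (0.0125), not in the 29-array model (0.0853). CPT2, a mitochondrial carnitine enzyme, was lowest there, at -0.82, and was called with the block (adjusted p = 0.0253).

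TXNIP and ARRDC4, arrestin proteins that restrain glucose uptake and are induced by glucose through MondoA and ChREBP, were lower. ARRDC4 fell from 6.11, 6.01 and 5.67 to 4.60, 4.71 and 3.95 (-1.51 ± 0.38, adjusted p = 0.0444). It was not called after quantile normalization of the 29 arrays (0.0991) or with any single array of 12 h left out. TXNIP read 7.37, 7.50 and 6.63 untreated and 5.65, 5.96 and 4.38 treated (-1.84 ± 0.67). Set 3 was lowest in both groups, and TXNIP was called in the 6-array fit (adjusted p = 0.0189) and with the block (0.0163) but not in the 29-array model (0.215). A further arrestin, ARRDC3, was at 0.97, and the list of 11 had a median of -0.15. The ARRDC4 promoter is shown for its E-box CACGTG, a sequence read by MondoA, ChREBP, MYC and others, at chr15:97960453-97960702 on the plus strand (RefSeq, GRCh38.p14). The E-box, 3 CCAAT boxes and 1 AP-1 element are in capitals.
ARRDC4: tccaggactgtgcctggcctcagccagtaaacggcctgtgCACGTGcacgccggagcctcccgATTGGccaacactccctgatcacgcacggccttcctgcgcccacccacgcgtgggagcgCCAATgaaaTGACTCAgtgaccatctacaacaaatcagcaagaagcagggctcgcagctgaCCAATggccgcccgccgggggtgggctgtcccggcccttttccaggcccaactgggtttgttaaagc
The E-box was in 1 of 13 promoters of genes that fell (7.69%) and in 9.31% of genes tested. Its share is thus near the background.

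Of the remaining genes that fell, GPR119, a receptor for lipid amides, read 5.13, 5.41 and 5.44 untreated and 3.20, 3.46 and 3.51 treated (-1.94 ± 0.45, adjusted p = 0.024). SMLR1, a small membrane protein, was at -1.46 ± 0.35 and TRMT1L, a tRNA methyltransferase, at -1.24 ± 0.31, with adjusted p of 0.0319 and 0.0384. ZNF326 (-1.21), PM20D2 (-1.17), POU2AF3 (-1.16) and the non-coding LINC00667 (-0.71) completed the 13. All of these were separated without overlap, and POU2AF3 alone among these 7 kept its call in any leave-out, 2 of 6.

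Few members of the liver function lists were called. Over all genes tested the share called was 1.24%, and 10.1% in the 6-array fit, so no call in lists this short is near the background. IGFBP1, HAMP and NAGS, described above and on none of these lists, rose. None of 25 secreted liver proteins was called in any fit named above, and their median was -0.08. ALB, albumin, read 11.82, 11.94 and 12.11 untreated and 11.81, 11.75 and 12.01 treated (-0.10 ± 0.16), and AFP differed by -0.08 ± 0.18. At the ends of that list were APOC1 (0.59) and FGG (-0.39). None of 8 liver transcription factors was called in the 29-array model, in which ONECUT1 was at -1.09 and TBX3 at 0.82 (adjusted p = 0.00933 with the block); in the 6-array fit 2 were called lower and 1 higher. Of 5 tested drug and alcohol enzymes, all were below 0 (58.2% of all genes), and none was called in the 29-array model or with the block. The 6-array fit called 2 lower, ADH6, the lowest at -1.17 (adjusted p = 0.0259), and DHRS2 at -0.89 (0.00952), and ALDH2 was highest at -0.10. No ribosomal protein (12 tested) or oxidative phosphorylation gene (11 tested) was called in any of these fits. The first lay between RPS6 at -0.12 and RPL10 at 0.26 and the second between COX5B at -0.15 and CYC1 at 0.27. No splicing factor of 34, from TRA2A at -0.69 to SNRPB at 0.25, was called in the 29-array model. In the 6-array fit 4 were called lower (6.19% of all genes). None of 10 p53 targets was called in the 29-array model and 1, SESN1 at -0.84, in the 6-array fit, while TP53I3 was highest at 0.25.

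**Figure D4:**
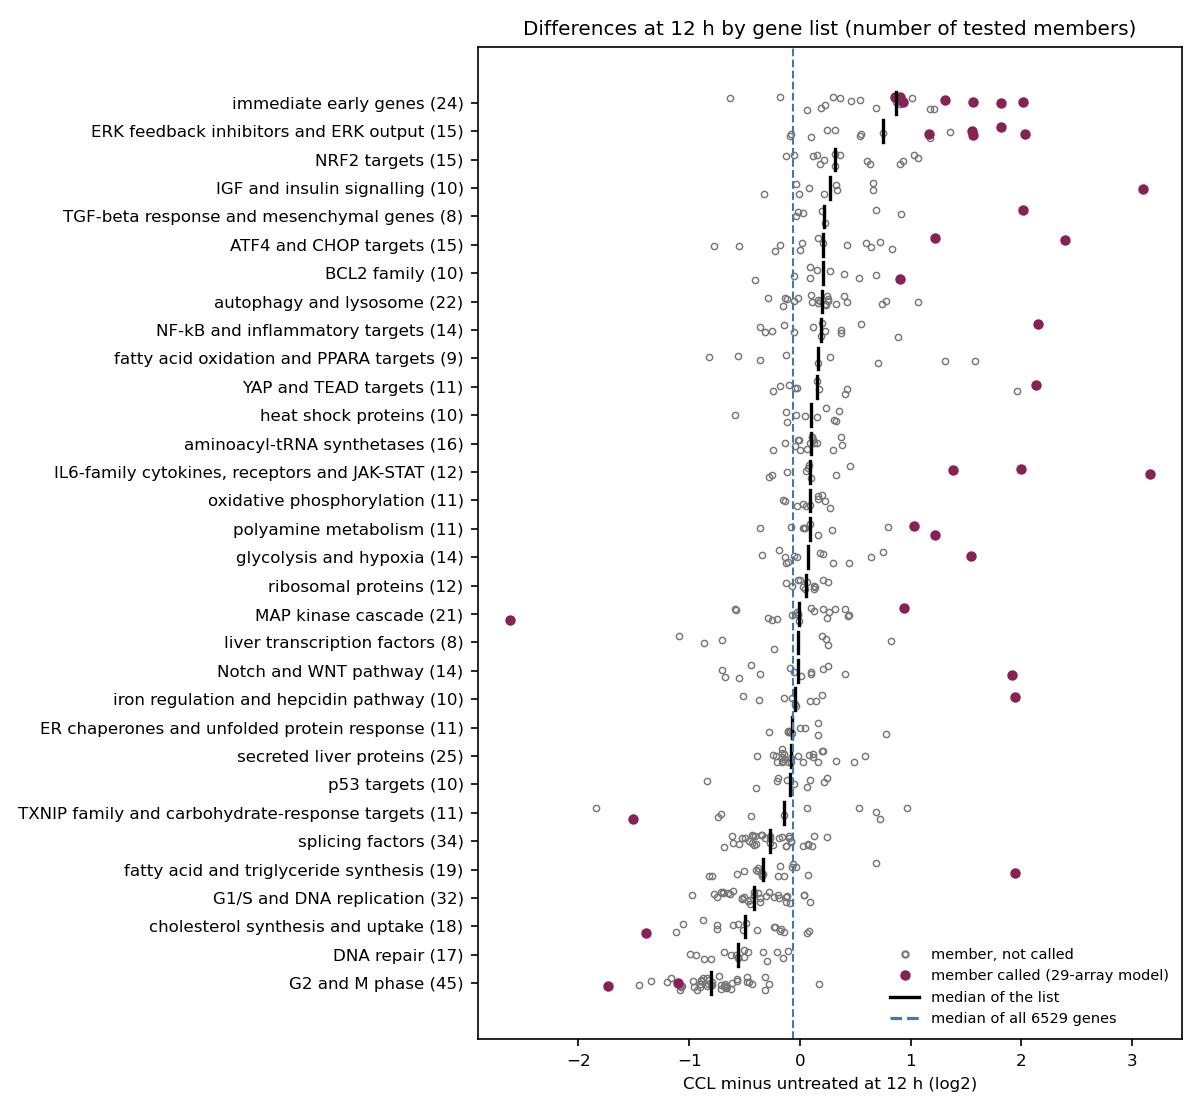
Difference of treated minus untreated cells at 12 h (horizontal axis, log2) for each tested member of the gene lists with at least 8 tested members, 1 row a list, ordered by median. Filled points are genes called in the 29-array model, black bars list medians and the dashed line the median of all 6529 genes at -0.06; immediate early genes are at one end (median 0.87) and G2 and M genes at the other (-0.81).

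The same genes were set beside the other times, whose differences use other arrays of both arms, so no control array is shared. The spread of each gene was nevertheless pooled over the groups of every time, and the filter used all arrays. A gene called at 12 h with a small pooled spread has that spread at the other times too. Counts of calls at the other times are therefore not independent of the calls at 12 h. Of the 68 genes that rose at 12 h, all 68 had a difference above 0 at 6, 18 and 24 h and 66 at 48 h, against 41.2%, 87%, 53.7% and 28.4% of all genes tested at 6, 18, 24 and 48 h. They were called higher in 12, 66, 59 and 36 cases (0.276%, 12.3%, 2.54% and 1.33% of all genes tested at these times). Of the 13 that fell, 13, 12, 13 and 13 were below 0, against 58.8%, 13%, 46.3% and 71.6% of all genes, and 0, 2, 1 and 8 were called lower (0.0306%, 0.184%, 0.475% and 5.22%). Array levels differ at 18 h, where the median over all genes was 0.41 as deposited and 0.00 after quantile normalization, and at 48 h (-0.26 and -0.05). After that normalization 28, 47, 59 and 60 of the 68 were called higher and 1, 6, 5 and 7 of the 13 lower.

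IL11 differed by 2.65, 3.59, 4.17 and 2.71 at 6, 18, 24 and 48 h, on either side of its 3.16 at 12 h. IGFBP1 was at 1.86, 3.93, 3.60 and 2.74, and UCA1 at 1.19, 3.71, 3.96 and 3.20. HAMP was highest at 12 h, with 1.16, 0.98, 0.85 and 0.11 at the other times. MAP2K6 was at -0.21 at 6 h and at -2.80, -2.87 and -2.26 from 18 h on. The G2 and M phase list had medians of -0.58, 0.02, -0.46 and -1.35 at these times, its value at 18 h lying below that of all genes (0.41).

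No gene was shown to respond differently at 12 h. With limma's test of the difference of the differences, 0 of 6529 genes had an adjusted p under 0.05 for 12 h against the mean of the other times, and 39 (0.597%) had an unadjusted p under 0.05. For 12 h against 6 h these counts were 0 and 53 (0.812%), and for 18 h against 12 h 0 and 923 (14.1%), the last falling to 229 (3.51%) after quantile normalization. MAP2K6 differed between 12 h and 6 h by -2.41 ± 0.65 (unadjusted p = 0.00101, adjusted p = 1), and HAMP between 12 h and the mean of the other times by 1.17 ± 0.44 (unadjusted p = 0.0134). Against the mean of the other times the lowest limma adjusted p of any gene was 0.999. Both genes were called at 12 h, and the same 12 h values enter these contrasts. Their unadjusted p-values are therefore not evidence of a difference between times. A p that misses the threshold does not show that the times are alike.

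**Figure D5:**
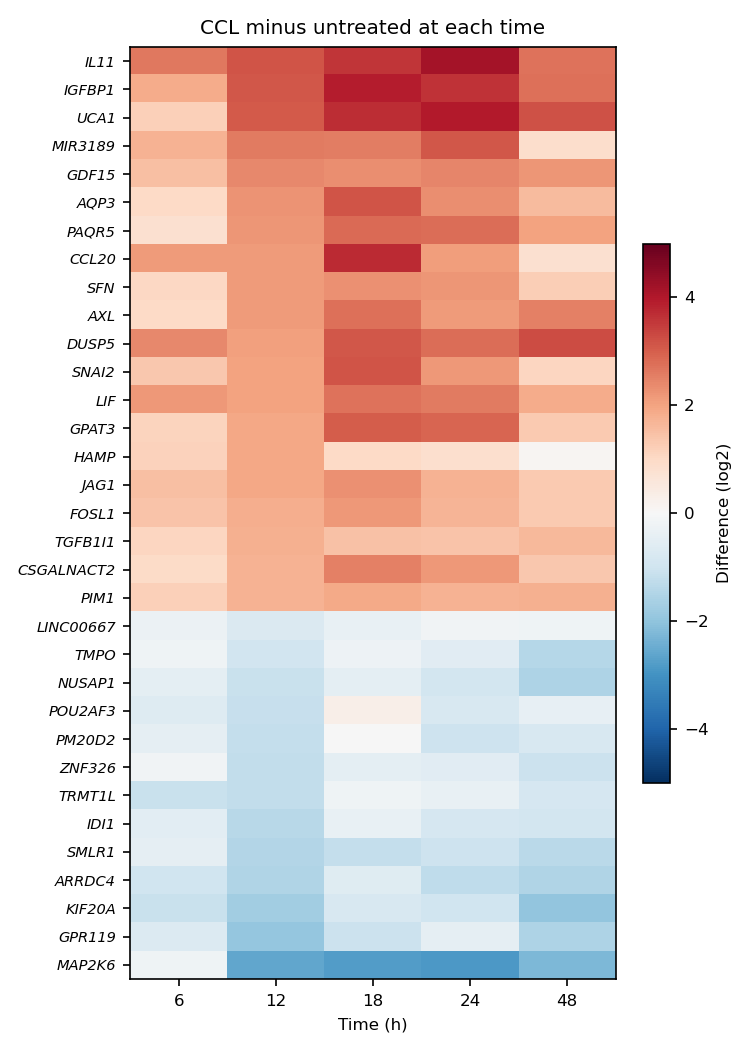
Difference of treated minus untreated cells (log2, colour) at 6, 12, 18, 24 and 48 h for the 20 genes with the largest rise at 12 h and the 13 that fell, as deposited. The upper genes are above 0 at every time, and MAP2K6 is at -0.21 at 6 h and below -2 from 12 h on.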

How the data were processed

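RNA was hybridized as biotin-labelled cRNA to Affymetrix arrays. Values were deposited on a log2 scale, 1 per probe set, and made by the authors with RMA in Affymetrix Expression Console 1.1, per the submitters' processing notes. They were used as they stand. RMA equalizes arrays normalized together; the 6 arrays of 12 h share a level that other arrays do not, and which arrays were normalized together is not given in the sources used here. No scanner intensities were used, so background and depth are unknown.

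Of 53617 probe sets, 16098 had 1 gene symbol in the platform's table (HuGene 2.0 ST) and all matched RefSeq GRCh38.p14 by gene ID; none had several and 37519 had none. For 779 of 14884 genes with several probe sets the one with the highest mean was used, and the filter, a value over log2 5 on 2 or more arrays, left 6529 genes. limma 3.58.1 (R 4.3.3) fitted 1 mean per group to 29 arrays (18 residual degrees of freedom), with Benjamini-Hochberg adjustment over 6529 genes; ± is the standard error. The fit to 6 arrays has 4 residual degrees of freedom. The script was tested on simulated data. Alternatives were normalization, filter, probe set choice, eBayes settings, the set block and leaving out each array.

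At 12 h the residuals of same-numbered arrays correlated at 0.212, 0.157 and 0.313 for sets 1, 2 and 3, all over 0.1. Treated set 2 correlated better with untreated set 1 (0.207). At other times same-numbered arrays correlated between -0.066 (18 h, set 1) and 0.444 (6 h, set 3). Residuals within a group cancel out, so these correlations are not independent. The set was therefore taken as a possible pairing, with the block as an alternative. The main model has no block, so its calls ignore any pairing.

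Named are the 20 highest and all called lower genes, called members of the lists, each described list's highest and lowest member (cell type markers aside) and 1 per role, and 25 fixed genes. Others, such as NAGS, ZYX, VASP and DHRS2, were chosen after their values were seen. Members and lists were chosen with earlier results of these data known. Besides the motifs named above, the metal element TGCNCNC (65.4% of promoters of genes that rose, 57.4% of genes tested) and the CArG box (3.85% and 0.874%) were searched.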

Additional observations from a re-analysis of the deposited data

Results flagged for a closer look

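As deposited, DLX2, a homeobox factor, was higher in every treated than in every untreated array at 12 h and lower in every treated array at 48 h. At 12 h it read 4.27, 4.11 and 4.21 untreated and 5.19, 5.24 and 5.62 treated (1.15 ± 0.19, limma adjusted p = 0.00147). These untreated values lie under log2 5, so the size of the difference is uncertain. At 48 h it read 5.00, 4.52 and 4.56 untreated and 4.13 and 4.50 treated, a difference of -0.38. Treated set 2, at 4.50, lay only just below the lowest untreated array, at 4.52. Array levels also differ at 48 h, where the median over all genes was -0.26 and 71.6% of genes lay below 0. The array median was 2.75 for treated set 1 and 2.96 to 3.02 for the other arrays of 48 h. How much of the DLX2 difference at 48 h goes with level was not tested. The differences at 12 and 48 h were not tested against each other. Against the mean of the other times, the 12 h difference was larger by 0.75 ± 0.22 (limma unadjusted p = 0.00221), with no gene called after adjustment. DLX2 was flagged in part by its 12 h values, which also enter this contrast. This p is therefore not evidence of a difference between times.

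Probe sets without a gene symbol were not used in the comparison. Of 7720 such probe sets above the same filter, 16 were called at 12 h (0.207%), 16 higher and 0 lower, by limma in the 29-array model. The fit to the 6 arrays called 23 higher and 12 lower.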

How the results depend on the processing

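Against 81 called genes (68 higher, 13 lower), quantile normalization of the 29 arrays gave 146 (116 and 30) and median centring 134 (97 and 37). The 6 arrays of 12 h alone gave 660 (256 and 404) and, quantile normalized together, an alternative chosen after seeing the data, 587 (300 and 287). Without a filter 7 genes were called lower, 51 higher and 25 of the 81 were not called, with 14884 genes tested. Leaving out 1 array of 12 h gave 28 to 47 called, 26 to 43 higher and 2 to 5 lower. With the set as a replicate block the counts were 257 (149 and 108) in the 29-array model and 918 (341 and 577) in the 6-array fit; the block ended none of the 81 calls. Among genes named in the report, the calls it added in the 29-array model are given there, and in the 6-array fit it added APOC1 (adjusted p = 0.0221), EGR1 (0.00476), ESAM (0.0314), FHL3 (0.0212), HK2 (0.0158), LGR5 (0.012), MYC (0.0291), SGK1 (0.0432) and TRIB3 (0.0291) and ended none. Stricter filters, the mean of probe sets, and trended robust variances gave 78 to 86 calls. The 3 tests between times called 0 genes in every setting run. No named gene changed sign between settings where it was called. Quantile normalization ended the calls of ARRDC4, EMP3, INPP1 and LINC00667. Signal over background was not measured, so low genes may be compressed to an unknown degree.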
